A study of Mus musculus with 9 samples.

Results

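The DNA replication machinery is the set of proteins that opens replication origins, unwinds the double helix and copies both strands. A list of 47 of its genes was followed, chosen by name and matched to the deposited counts through the NCBI Gene number, and all 47 were among the 27179 gene identifiers and among the 13129 genes with enough counts to be tested. The genes were grouped by complex into 11 groups, from the origin recognition complex to the enzymes that supply deoxynucleotides. The RNAs came from RNA immunoprecipitation sequencing (RIP-seq), in which an antibody to a protein pulls down the RNA attached to it. Spleen B cells of wild type mice, kept as CD43- cells, were stimulated for 72 h with CD40L at 5 ug/mL, anti-IgM antibody at 10 ug/mL and IL-4 at 20 ng/mL. The methods of the study name an anti-CD40 antibody in place of the ligand. All 9 libraries share this genotype and stimulation, and the 3 groups differ in the RNA sampled. The 3 p-UPF1 libraries hold RNA precipitated with an antibody to phosphorylated UPF1, the 3 IgG libraries hold RNA brought down by normal rabbit IgG, and the 3 input libraries hold RNA of the lysate.

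UPF1 is an RNA helicase of nonsense-mediated decay, and its phosphorylated form accumulates on mRNAs on which decay factors are recruited, often downstream of a stop codon with a long 3′ UTR or with a splice junction beyond it. At an origin, the origin recognition complex with CDC6 and CDT1 loads the MCM2-7 ring, which becomes the active CMG helicase (CDC45, MCM2-7 and GINS) when CDC45 and the 4-subunit GINS complex join it. Polymerases alpha, epsilon and delta, the PCNA clamp, its RFC loader and the single-strand binder RPA then work at the fork, and activated B cells pass through this program as they divide.

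Total counts were 19873687 to 24945286 in input, 17372510 to 18550508 with IgG and 23251890 to 24802119 with p-UPF1. Summed B cell markers lay at 13330 to 13477 CPM in input (7 of 7 detected), while T cell markers summed to 0.606 to 0.917 CPM and natural killer markers to 0.0505 to 0.162 CPM, with Ncr1 at 0. Erythroid markers summed to 0.203 to 0.404 CPM with both globin genes at 0, platelet markers summed to at most 0.0509 CPM, and plasma cell markers summed to 508 to 543 CPM, of which Irf4 gave 502. Myeloid markers summed to 142 to 154 CPM, almost all from Adgre1 (131 CPM) and Cd68 (14.4 CPM), while Lyz2 (0.196 CPM), Itgam (0.22 CPM) and Csf1r (0.0305 CPM) were near 0. The part of these marker counts in the results was not tested. The study's methods describe plotted data points as biological replicates without naming these libraries, and the labels do not say whether they came from separate animals or cultures, so the P values measure the spread between libraries, whatever its source. CPM values, read counts scaled to library depth, use TMM factors and follow the column letters A, B and C of each group.

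Most replication mRNAs were less abundant in the p-UPF1 than in the IgG precipitate under the TMM scaling. A few, led by Gins3, were more abundant under it. When scaled to mitochondrially encoded mRNA, all 47 were more abundant, as 99.3% of all genes tested were. Under the call rule (edgeR, quasi-likelihood, P adjusted over all genes tested and under 0.05, with a log2 difference no smaller than 1), 7 of 47 members were higher in p-UPF1 than in IgG libraries (14.9%, against 22.2% of all genes) and 19 were lower (40.4%, against 21.9% of all genes). The 7 higher members were Gins3, Rpa2, Orc5, Rfc1, Cdc6, Orc2 and Pole3. The 19 lower ones were Mcm2 to Mcm6, Gins1, Gins4, Cdc45, Gmnn, Prim1, Prim2, Pole2, Pole4, Pold1, Pold2, Pcna, Rfc3, Rfc4 and Rpa3. At any fold, 11 were higher (23.4%, against 40.4% of all genes) and 32 lower (68.1%, against 42.2% of all genes). All 3 p-UPF1 libraries lay above all 3 IgG libraries for 12 members (25.5%, against 40.6% of all genes) and below them for 31 (66.0%, against 41.5% of all genes). The log2 fold changes over IgG ran from -3.07 for Rpa3 to 3.64 for Gins3, with a median of -0.66 over the members and -0.03 over all genes tested. These are values relative to the TMM scaling. The median of the 47 members less that of all genes was -0.63, a difference that no scaling factor can change because it shifts every gene alike.

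The direction of single members depends on the scaling where RNA content differs between precipitates. The 13 mitochondrially encoded mRNAs held 2.05% to 2.24% of counts in IgG, 2.47% to 2.53% in input and 0.0706% to 0.0778% with p-UPF1. When libraries were scaled to an equal total of these mRNAs, the median of all genes over IgG moved by 4.69 to 4.66, that of the members became 4.03, and all 47 members were higher and 0 lower, as 99.3% and 0.0% of all genes tested were. Over input, 46 members were then higher and 0 lower, as 97.0% and 0.0% of all genes were, so these counts are not particular to the members. Ratios between members within a library do not depend on scaling and are given beside the fold changes.

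**Figure D1:**
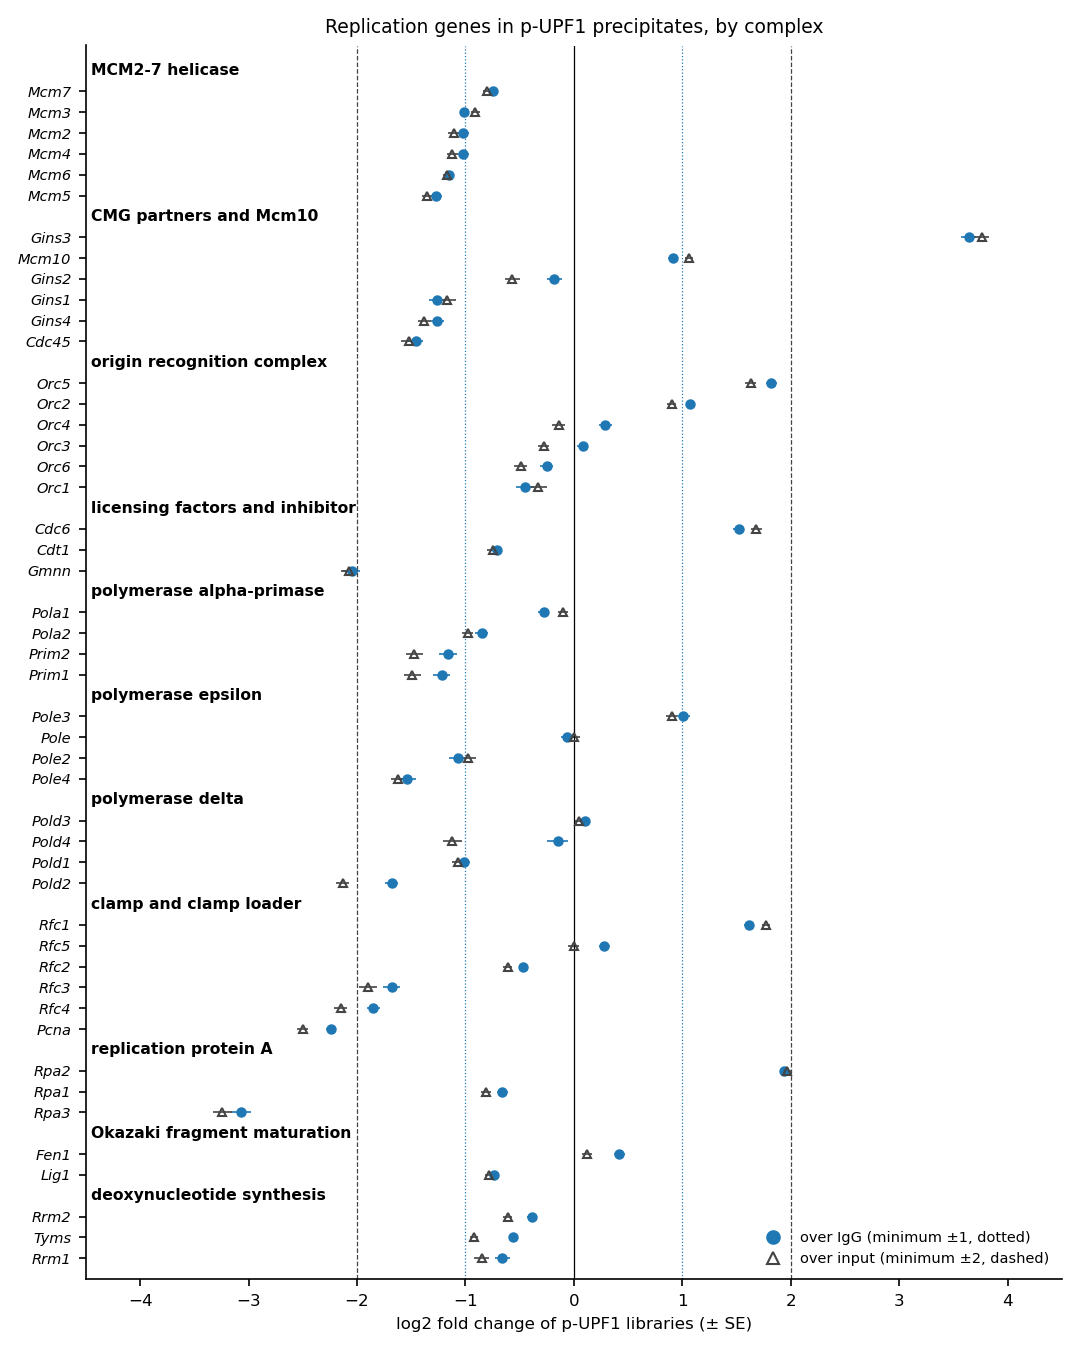
Log2 fold change (± SE) of the 47 replication genes in p-UPF1 libraries over IgG (filled circles) and over input (open triangles), n = 3 libraries a group, grouped by complex and TMM-scaled. Gins3 lies at 3.64 and 3.76 while the other GINS genes lie below 0, the MCM2-7 genes lie within 0.52 of each other over IgG, and Rpa2 and Rpa3 lie at opposite ends. On a scale of equal mitochondrially encoded mRNA instead, all 47 lie above 0 over IgG, where 99.3% of all genes tested were called higher.

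Against input, where the study's methods set the minimum log2 difference at 2, 1 member was higher (Gins3, 2.13%, against 6.31% of all genes) and 5 were lower (10.6%, against 9.67% of all genes). The 5 lower members were Rpa3 (-3.24), Pcna (-2.50), Rfc4 (-2.15), Pold2 (-2.13) and Gmnn (-2.07). The calls of Gmnn and Pold2 were lost, leaving 3, with no low-count filter and with glmTreat, and that of Gmnn alone, leaving 4, with an IgG library as TMM reference. At a minimum of 1, 6 were higher (12.8%, against 22.5% of all genes) and 18 lower (38.3%, against 24.5% of all genes), and at any fold 9 were higher (19.1%, against 40.8%) and 34 lower (72.3%, against 42.6%). All 3 p-UPF1 libraries lay above all 3 input libraries for 9 members (19.1%, against 43.2% of all genes) and below them for 35 (74.5%, against 45.0% of all genes). Only Gins3 of the 47 met both minimums that the study's methods set for a p-UPF1-bound RNA (2.13%, against 6.25% of all genes). Rpa2 came next at 1.94 (IgG) and 1.96 (input) on the log2 scale, just under the second minimum, and it met both in 4 of 13 settings other than the mitochondrial scaling. The comparisons with IgG and with input share the p-UPF1 libraries. Together the 47 genes held 0.561% ± 0.00379 of counts in input, 0.569% ± 0.00535 with IgG and 0.433% ± 0.00451 with p-UPF1 (SD, n = 3).

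**Figure D2:**
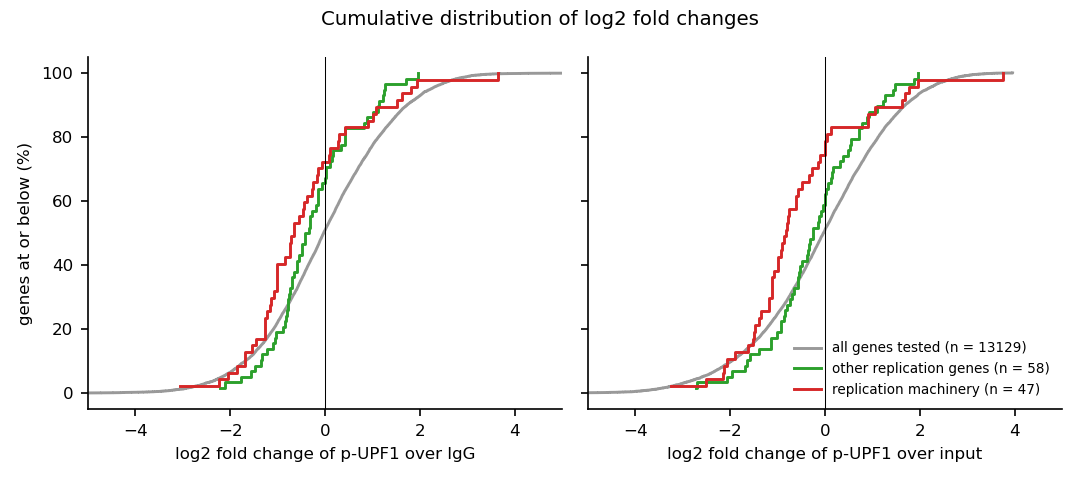
Share of genes (%) at or below each log2 fold change of p-UPF1 libraries over IgG (left) and over input (right), for the 47 replication genes, 58 other replication genes and all 13129 genes tested, TMM-scaled. The curve of the 47 genes lies left of that of all genes through the middle, with medians of -0.66 and -0.81 against -0.03 and -0.03, and ends in a single gene, Gins3, at 3.64 and 3.76. The scaling to equal mitochondrially encoded mRNA moves the curves over IgG to medians of 4.03 and 4.66.

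GINS is a ring-like complex of SLD5 (Gins4), PSF1 (Gins1), PSF2 (Gins2) and PSF3 (Gins3) that holds the MCM2-7 ring and CDC45 together. Its 4 mRNAs went in different directions. To show what stands at the point where translation ends, 30 bases of each mRNA around the stop codon (capitals) are printed 5′ to 3′ from the RefSeq Select transcript on GRCm38.p6. The windows lie at chr2:150930895-150930924 (plus strand) for Gins1, chr8:120581671-120581700 (minus) for Gins2, chr8:95643323-95643352 (plus) for Gins3 and chr8:23227064-23227093 (minus) for Gins4, each within 1 exon. The 3′ UTR that begins after each stop codon is annotated at 371 bases in Gins1, 420 in Gins2, 1722 in Gins3 and 469 in Gins4.
Gins1: cacgtgctgtccTGActgtgtcctgtggtg
Gins2: tcgcaggacttcTAGccagaggcctctgct
Gins3: aacatggaagacTAAaagccgaacacaaac
Gins4: gttcagctaataTAAaacaaagcaagcctg

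Gins3 (Gene 78833, chr8:95633559-95645059, plus strand, 3 exons) was at 15.4, 17 and 14.6 CPM in input, 15.1, 17.1 and 18.7 CPM with IgG and 209.6, 213.6 and 212.8 CPM with p-UPF1. The p-UPF1 libraries stood far above the other 6, which overlapped one another. The difference was 12.5-fold over IgG (log2 3.64 ± 0.07 SE, adjusted P = 2.97e-17) and 13.5-fold over input (log2 3.76 ± 0.07, adjusted P = 1.5e-17, edgeR). Only 31 of the 13129 genes tested had a larger log2 fold change over IgG. Over 22 alternatives, the mitochondrial scaling not among them, the log2 fold change stayed within 3.48 to 3.72 over IgG and 3.69 to 3.89 over input.

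Gins1 (Gene 69270), which encodes PSF1, was at 17.9, 18.5 and 19.0 CPM in input, 18.9, 19.9 and 20.0 CPM with IgG and 8.47, 7.81 and 8.25 CPM with p-UPF1. All 3 p-UPF1 libraries lay below the other 6, with a log2 fold change over IgG of -1.26 ± 0.08 (adjusted P = 4.07e-10). Gins4 (Gene 109145), which encodes SLD5, was at 50.6, 50.4 and 50.5 CPM in input, 42.4, 47.5 and 48.7 CPM with IgG and 18.8, 19.2 and 20.1 CPM with p-UPF1. It too was lower in every p-UPF1 library, with a log2 fold change over IgG of -1.26 ± 0.06 (adjusted P = 1.46e-11). Gins2 (Gene 272551), which encodes PSF2, was at 45.9, 47.1 and 44.0 CPM in input, 36.8, 36.6 and 31.1 CPM with IgG and 31.8, 31.6 and 29.1 CPM with p-UPF1. Its IgG and p-UPF1 values overlapped, and its log2 fold change over IgG of -0.18 ± 0.07 (adjusted P = 0.0312) missed the test in 3 of the 12 other settings that test for any difference (adjusted P of 0.0621 to 0.119) and without each of 5 single libraries (0.0562 to 0.142), namely p-UPF1 A or C, IgG A or B, or input B. Both precipitates held less Gins2 than input, by -0.39 on the log2 scale for IgG (adjusted P = 0.000179) and -0.57 for p-UPF1 (adjusted P = 9.47e-07). Gins1 shares exon sequence on its own strand with Gm20550, and Gins2 shares some on the opposite strand with Gse1, so reads in those exons may belong to either gene.

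**Figure D3:**
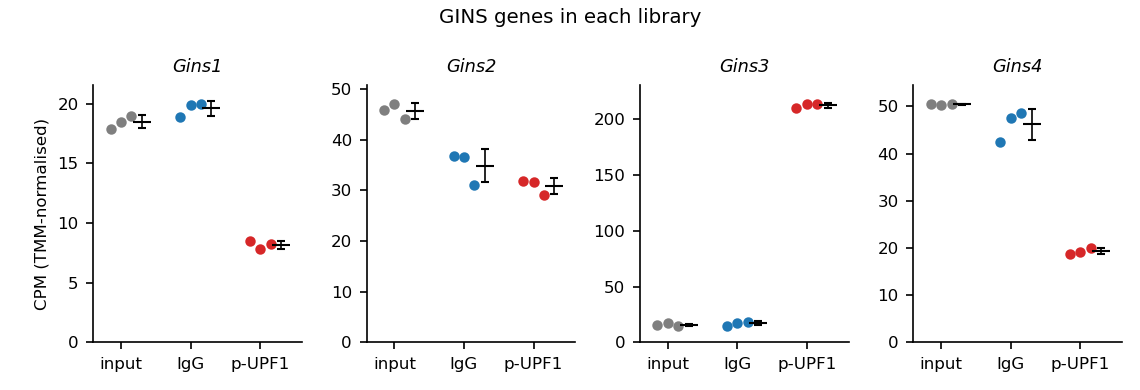
CPM (TMM-normalised) of Gins1, Gins2, Gins3 and Gins4 in each library, with the mean and SD of 3 libraries a group as bars beside the points. The Gins3 points of p-UPF1 libraries lie at 209.6 to 214 CPM against at most 18.7 CPM elsewhere, while those of Gins1 and Gins4 lie below both other groups. With equal mitochondrially encoded mRNA as the scale, all 4 genes are higher in p-UPF1 than in IgG libraries, as are 99.3% of all genes tested.

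Within a library, Gins3 took 12% ± 0.71 of the counts of the 4 GINS genes in input, 14.4% ± 1.23 with IgG and 78.4% ± 0.376 with p-UPF1 (SD, n = 3). The log2 ratio of Gins3 to Gins1 counts was -0.24 ± 0.13 in input, -0.21 ± 0.113 with IgG and 4.70 ± 0.072 with p-UPF1. Per kilobase of transcript, Gins3 had the lowest level of the 4 in input and the highest with p-UPF1. It stood 46th of the 47 members in input (6.49 CPM per kilobase) and 5th with p-UPF1 (87.9 CPM per kilobase).

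The other partners of the helicase differed less, and in both directions. Cdc45, which bridges the MCM ring and GINS, was at 69.6, 73.7 and 74.6 CPM in input, 73.0, 74.9 and 61.8 CPM with IgG and 24.1, 25.1 and 27.1 CPM with p-UPF1. It was the lowest of this group over IgG (log2 -1.46 ± 0.07, adjusted P = 1e-11), and its gene overlaps exons of Ufd1 on the opposite strand. Mcm10, which helps to activate the helicase, had 75.4 ± 2.05 CPM with IgG and 141.6 ± 4.43 CPM with p-UPF1. Its log2 fold change of 0.91 ± 0.04 (adjusted P = 5.78e-12) fell short of the fold minimum.

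The 6 genes of the MCM2-7 ring, the motor of the helicase, were lower in p-UPF1 libraries by similar amounts under the TMM scaling, from -0.75 for Mcm7 to -1.27 for Mcm5 over IgG. Mcm7 was at 264, 267 and 277 CPM in input, 250.5, 262 and 267 CPM with IgG and 147, 160.4 and 155.5 CPM with p-UPF1. Mcm5 was at 312, 312 and 317 CPM in input, 290.3, 304 and 297 CPM with IgG and 113, 124.5 and 132 CPM with p-UPF1. Neither gene's p-UPF1 values overlapped the other groups. Adjusted P values over IgG lay between 2.34e-14 (Mcm6) and 7.35e-11 (Mcm7). Mcm2 (-1.02), Mcm3 (-1.01) and Mcm4 (-1.02) sat at the fold minimum itself, and tested against that minimum (glmTreat) they had adjusted P values of 0.394, 0.478 and 0.395. The make-up of the ring's mRNAs stayed close, with Mcm6 at 32.1% ± 0.288 of the 6 genes' counts in input, 32.2% ± 0.172 with IgG and 30% ± 0.494 with p-UPF1. Mcm7 moved most, from 12.8% ± 0.107 in IgG to 15.7% ± 0.362 with p-UPF1.

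The origin recognition complex, which marks origins and receives the MCM ring, had no member among the 19 lower genes. Orc5 was at 49.2, 52.5 and 48.5 CPM in input, 45.2, 45.5 and 40.7 CPM with IgG and 154.5, 159 and 151 CPM with p-UPF1. All 3 p-UPF1 libraries lay above the other 6, a 3.53-fold difference over IgG (log2 1.82 ± 0.05, adjusted P = 7.46e-15). Orc2 went from 108.7 ± 6.08 CPM with IgG to 228.5 ± 2.23 CPM with p-UPF1 (log2 1.07 ± 0.04, adjusted P = 6.97e-13), and it dropped below the fold minimum under 3 other scalings and missed the test against the minimum (glmTreat, adjusted P = 0.0511). Orc1, the large ATPase subunit, was at 18.2, 17.6 and 17.3 CPM in input, 18.2, 18.1 and 21.2 CPM with IgG and 13.8, 14.4 and 14.0 CPM with p-UPF1. It was the lowest of the complex at -0.45 ± 0.08 (adjusted P = 0.000128), with no overlap between p-UPF1 and the other groups. Orc4 (0.29), Orc3 (0.08) and Orc6 (-0.25) lay near 0 over IgG, and all 3 were lower in IgG than in input, by -0.43, -0.35 and -0.24.

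The licensing factors differed among themselves. Cdc6, the ATPase that loads MCM rings with the origin recognition complex, was at 47.5, 48.9 and 46.1 CPM in input, 52.5, 50.7 and 56.1 CPM with IgG and 149, 152 and 155 CPM with p-UPF1. Every p-UPF1 library was above the others, 2.86-fold over IgG (log2 1.52 ± 0.05, adjusted P = 2.33e-14). Gmnn, which encodes geminin, the inhibitor of CDT1, was at 57.7, 58.4 and 56.7 CPM in input, 58.5, 60.5 and 51.6 CPM with IgG and 13.4, 12.6 and 15 CPM with p-UPF1. It was 4.15-fold lower than in IgG (log2 -2.05 ± 0.08, adjusted P = 1.69e-13). Cdt1 itself had 64.0 ± 1.32 CPM with IgG and 39.1 ± 1.11 CPM with p-UPF1 (log2 -0.71 ± 0.05). The log2 ratio of Cdc6 to Gmnn counts was -0.28 ± 0.022 in input, -0.10 ± 0.195 with IgG and 3.48 ± 0.116 with p-UPF1.

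Polymerase alpha-primase, which starts each strand with an RNA and DNA primer, had its primase genes among the lower members. Prim1, the catalytic primase subunit, was at 57.8, 55.5 and 57.7 CPM in input, 53.5, 46.7 and 41.9 CPM with IgG and 20.1, 19.3 and 21.4 CPM with p-UPF1. No p-UPF1 library reached the other groups (log2 -1.22 ± 0.08 over IgG, adjusted P = 3.53e-10), and Prim2, the large primase subunit, had a log2 fold change of -1.16 ± 0.08 (adjusted P = 7.49e-10). Pola1, the DNA polymerase subunit, was at 87.6, 90.2 and 88.5 CPM in input, 95.9, 105.7 and 98.4 CPM with IgG and 76.3, 84.2 and 87.1 CPM with p-UPF1. Every p-UPF1 library lay below the other 6, narrowly so for input (log2 -0.10 ± 0.05, adjusted P = 0.084), and the log2 fold change over IgG was -0.28 ± 0.05 (adjusted P = 0.000178). Pola2 lay between them at -0.85 ± 0.06 over IgG.

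Polymerase epsilon, the leading-strand polymerase, split between its small histone-fold subunits. Pole3 was at 30.7, 30.7 and 30.6 CPM in input, 28.7, 28.4 and 27.7 CPM with IgG and 59.2, 57.9 and 54.1 CPM with p-UPF1. All p-UPF1 values were above the rest, with a log2 fold change over IgG of 1.01 ± 0.06 (adjusted P = 3.32e-11) at the fold minimum, and the call was lost under 3 other scalings, without IgG replicate C and when the minimum itself was tested (glmTreat, adjusted P = 0.424). Its partner Pole4 was at 59.5, 61.7 and 58.0 CPM in input, 57.1, 62.2 and 49.8 CPM with IgG and 18.7, 19.6 and 20.0 CPM with p-UPF1. It was lower by -1.54 ± 0.08 over IgG (adjusted P = 7.71e-12), and the log2 ratio of Pole3 to Pole4 counts turned from -0.99 ± 0.142 in IgG to 1.55 ± 0.111 with p-UPF1. Pole, the catalytic subunit, overlapped in all 3 groups with 138, 144 and 138 CPM on average in input, IgG and p-UPF1 libraries. Pole2, the second subunit, had a log2 fold change of -1.07 ± 0.08 over IgG and an adjusted P of 0.182 when the minimum itself was tested (glmTreat).

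Polymerase delta, which copies the lagging strand with PCNA, had no member among the higher genes. Pold3 was at 89.3, 84.5 and 85.4 CPM in input, 86.2, 81.8 and 82.1 CPM with IgG and 95.0, 87.3 and 85.9 CPM with p-UPF1. The groups overlapped (log2 0.10 ± 0.05 over IgG, adjusted P = 0.0687). Pold2, the regulatory subunit, was at 67.3, 68.7 and 73.2 CPM in input, 51.4, 51.8 and 49.8 CPM with IgG and 16.8, 15.1 and 15.8 CPM with p-UPF1. It fell in steps without overlap, by -1.68 ± 0.06 over IgG (adjusted P = 1.57e-13) and -2.13 ± 0.06 over input (adjusted P = 4.38e-15), and it overlaps exons of Aebp1 on the opposite strand. Pold1, the catalytic subunit, sat at the minimum with -1.01 ± 0.05 and an adjusted P of 0.495 when the minimum itself was tested (glmTreat). Pold4, the smallest subunit, was at 31.9, 33.9 and 32.5 CPM in input, 19.2, 15 and 16.2 CPM with IgG and 15.9, 16.2 and 13.2 CPM with p-UPF1. Both precipitates held less Pold4 than input and overlapped each other (log2 -0.15 ± 0.10 over IgG, adjusted P = 0.171).

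The sliding clamp PCNA and its loader, in which RFC1 is the large subunit beside RFC2 to RFC5, ranged over 3.85 on the log2 scale, from Pcna to Rfc1. For the highest and lowest of the clamp, loader and RPA genes, the bases around the stop codon (capitals) are shown because the annotated 3′ UTRs that follow differ widely, with 1211 bases in Rfc1, 64 in Rfc4, 330 in Pcna, 872 in Rpa2 and 229 in Rpa3. On GRCm38.p6 they lie at chr5:65263048-65263077 (minus) for Rfc1, chr16:23113997-23114026 (minus) for Rfc4, chr2:132249601-132249630 (minus) for Pcna, chr4:132777860-132777889 (plus) for Rpa2 and chr6:8256150-8256179 (minus) for Rpa3.
Rfc1: aattggaagaaaTGAaatcactgtttagta
Rfc4: actcagaactgtTAGaggcttcatctctcc
Pcna: gaggaagcatctTAGgcattgctagaaatt
Rpa2: acagatgcagagTGActggagtttcctggg
Rpa3: ccacaacatgaaTGAgcttcttcagtttct

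Rfc1 was at 148, 151 and 157.5 CPM in input, 164, 172 and 172 CPM with IgG and 535, 511 and 509.8 CPM with p-UPF1. All p-UPF1 libraries lay above the rest, 3.06-fold over IgG (log2 1.61 ± 0.04, adjusted P = 1.58e-15). The small loader subunits did not follow, with log2 fold changes over IgG of 0.28 ± 0.05 for Rfc5, -0.47 ± 0.04 for Rfc2, -1.68 ± 0.08 for Rfc3 and -1.85 ± 0.06 for Rfc4. Rfc1 alone took 35.6% ± 0.957 of the counts of the 5 loader genes in input, 41.7% ± 0.44 with IgG and 76.7% ± 0.237 with p-UPF1. Rfc4 overlaps exons of Eif4a2 on the opposite strand. Pcna was at 296, 302 and 296 CPM in input, 233, 258 and 254 CPM with IgG and 51.0, 51.2 and 55.7 CPM with p-UPF1. It was 4.72-fold lower than in IgG (log2 -2.24 ± 0.05, adjusted P = 3.59e-16) with no overlap. Per kilobase it stood 1st of the 47 members in input and 15th in p-UPF1 libraries, and since Pcna has named pseudogenes, reads of near-identical copies may have been split.

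Replication protein A, the trimer that coats single-stranded DNA, had partners 5.01 apart on the log2 scale. Rpa2, the middle subunit, was at 89.9, 86.6 and 87.2 CPM in input, 88.5, 87.5 and 91.5 CPM with IgG and 337, 356 and 333 CPM with p-UPF1. The p-UPF1 libraries stood clear of the others, which overlapped (3.84-fold over IgG, log2 1.94 ± 0.04, adjusted P = 2.54e-16). Rpa3, the smallest subunit, was at 29.8, 30.4 and 29.8 CPM in input, 26.4, 26.0 and 27.6 CPM with IgG and 3.41, 2.75 and 3.31 CPM with p-UPF1. This was the lowest log2 fold change of all 47 (-3.07 ± 0.09, adjusted P = 1.37e-14, 8.41-fold lower than in IgG), and 61 to 81 reads stood behind each p-UPF1 value. Rpa1, the large DNA-binding subunit, had 137 ± 9.47 CPM with IgG and 86.7 ± 4.34 CPM with p-UPF1 (log2 -0.66 ± 0.05). The annotated 3′ UTR of Rpa1, at 1046 bases, is longer than that of Rpa2, so length and fold change were not in the same order here. The log2 ratio of Rpa2 to Rpa3 counts was 1.55 ± 0.043 in input, 1.74 ± 0.010 with IgG and 6.76 ± 0.218 with p-UPF1. Of the counts of the 3 genes, Rpa2 took 32.5% ± 0.589, 35.3% ± 1.54 and 79.2% ± 1.05 in these groups, and Rpa3 took 11.1% ± 0.173, 10.5% ± 0.516 and 0.733% ± 0.102.

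**Figure D4:**
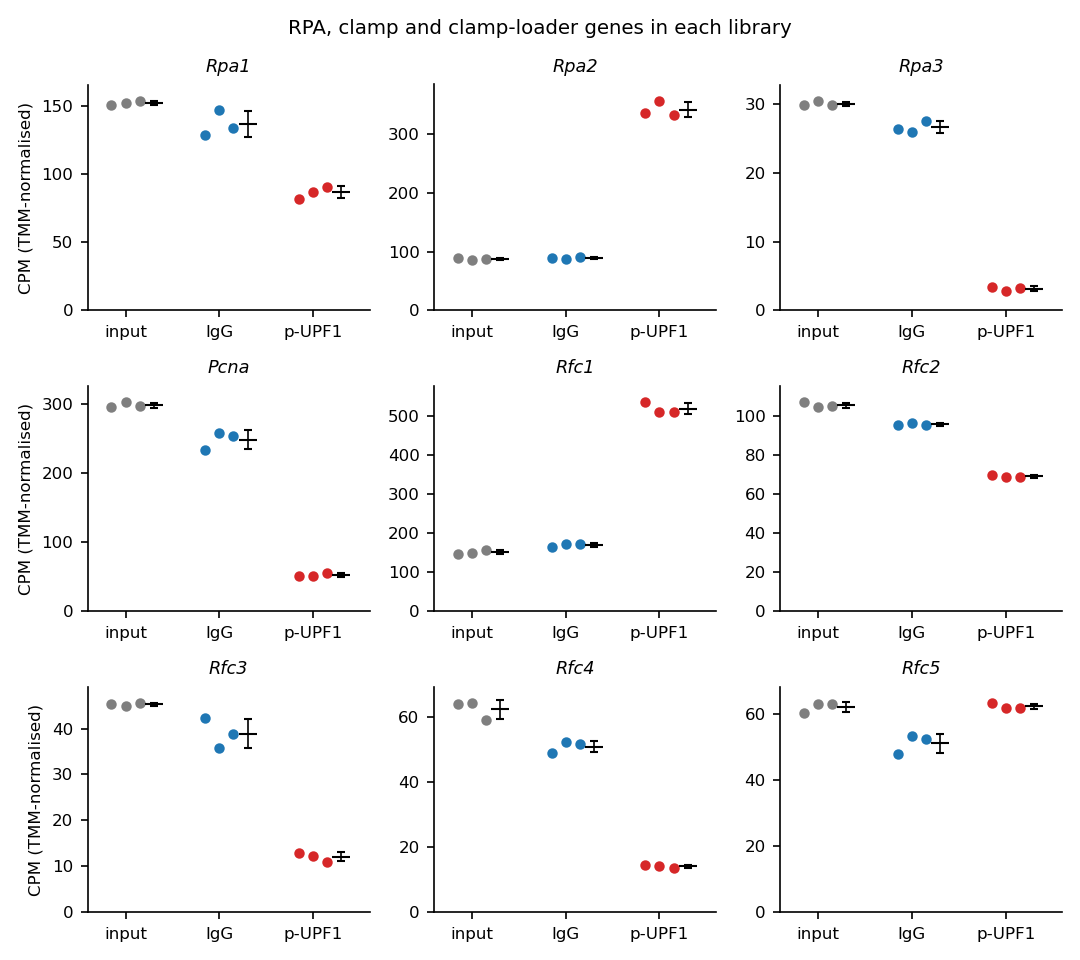
CPM (TMM-normalised) of the RPA, PCNA and RFC genes in each library, with the mean and SD of 3 libraries a group as bars beside the points and a separate axis for each gene. Rpa2 and Rfc1 of p-UPF1 libraries lie above both other groups (333 to 356 and 509.8 to 535 CPM), and Rpa1, Rpa3, Pcna, Rfc2, Rfc3 and Rfc4 lie below them. On the scale of equal mitochondrially encoded mRNA, all 9 are higher in p-UPF1 than in IgG libraries, as are 99.3% of all genes tested.

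The enzymes that finish Okazaki fragments and supply deoxynucleotides passed the test without reaching the fold minimum. Fen1, the flap nuclease, was at 144.9, 148 and 149 CPM in input, 112, 126 and 119 CPM with IgG and 154, 164 and 162 CPM with p-UPF1. It was higher than IgG by 0.42 ± 0.05 (adjusted P = 3.63e-07). Lig1, the ligase that seals the nicks, was at 229, 235 and 223 CPM in input, 221, 232 and 217 CPM with IgG and 135, 132 and 134 CPM with p-UPF1. It was lower in all p-UPF1 libraries (-0.74 ± 0.04, adjusted P = 3.45e-11). Rrm2, the small subunit of ribonucleotide reductase, was at 150.1, 154 and 152 CPM in input, 133, 134.5 and 125 CPM with IgG and 100.1, 102 and 97.0 CPM with p-UPF1. Its large subunit Rrm1 was at 323.5, 341 and 336 CPM in input, 252, 325.5 and 303 CPM with IgG and 174, 195 and 187 CPM with p-UPF1. Both were lower than in IgG, by -0.39 ± 0.04 (adjusted P = 2.73e-07) and -0.66 ± 0.07 (adjusted P = 2.4e-07). Tyms, thymidylate synthase, had -0.56 ± 0.04, so the 3 genes of this group lay within 0.27 of each other, the narrowest range of the 11 groups, the widest being 5.10 for GINS, CDC45 and MCM10.

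The IgG precipitate itself differed little from input. By the same edgeR rule with a minimum of 1, 0 members were higher (2.07% of all genes were) and 0 lower (2.16% of all genes were). At any fold, 4 members were higher (Pola1, Rfc1, Mcm10 and Cdc6, with 0.16 to 0.17, 8.51% against 18.2% of all genes) and 21 were lower (44.7%, against 34.7% of all genes). All 3 IgG libraries lay above all 3 input libraries for 5 members (19.6% of all genes did) and below them for 26 (38.5% of all genes did). The lowest was Pold4 at -0.96 (adjusted P = 4.65e-07), followed by Pold2 at -0.45 and Orc4 at -0.43. Scaling to mitochondrially encoded mRNA moved the median of all genes in this comparison by 0.34 and turned that of the members from -0.12 to 0.23, and the other scalings moved the former by up to 0.12, so the direction of the smaller differences depends on the scaling. In bulk RNA, fewer cells in S phase and less RNA per cell cannot be told apart, so the input levels describe the lysate as a whole.

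Per kilobase of transcript, the order of the members changed between lysate and precipitate. The 3 highest in input were Pcna at 237 CPM per kilobase, Mcm6 at 224 and Mcm3 at 129.6, and the 3 highest in p-UPF1 libraries were Rpa2 at 192, Rfc1 at 109.8 and Mcm6 at 99.3 CPM per kilobase. Rfc1 had stood 31st in input and Orc5, which came 6th in p-UPF1 libraries, 36th. Rpa3 went from 18th place to 46th. Orc1 was last in all 3 groups, at 5.88 CPM per kilobase in input and 4.67 with p-UPF1. Pcna, Mcm6, Mcm3 and Mcm7 held the first 4 places in input and in IgG, where Pcna and Mcm6 changed places.

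Annotated 3′ UTRs are shorter in the 47 genes (median 476 bases) than in the 11905 tested genes with a coding transcript (median 1016 bases). Only 12 of the 47 members reached 1000 bases, against 50.5% of those tested. The median was 1211 bases (146 to 2737) for the 7 members higher over IgG, 278 bases (45 to 1311) for the 19 lower ones and 665 bases (136 to 4132) for the other 21. As a description across genes, which share the same libraries and are not independent replicates, Spearman's rho between 3′ UTR length and log2 fold change over IgG was 0.56 over the 47 members, 0.22 over 58 other replication genes and 0.36 over the 11905 genes. For coding length it was 0.11 over the members and 0.13 over the 11905 genes. Transcript length, which includes the 3′ UTR, gave 0.41 and 0.30.

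Within the groups the order was less regular. In 8 of 11 the member with the highest log2 fold change had a longer 3′ UTR than the one with the lowest, and in 6 it had the longest of its group (Gins3, Cdc6, Pola1, Pold3, Rfc1 and Fen1). The 3 exceptions were the MCM2-7 ring (Mcm7 with 136 bases above Mcm5 with 1115), polymerase epsilon (Pole3 with 146 above Pole4 with 1311) and deoxynucleotide synthesis (Rrm2 with 914 above Rrm1 with 1288). Long 3′ UTRs also occurred without a call, as in Orc3 (4132 bases, log2 0.08), Tyms (2796 bases, log2 -0.56) and Orc4 (2586 bases, log2 0.29).

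**Figure D5:**
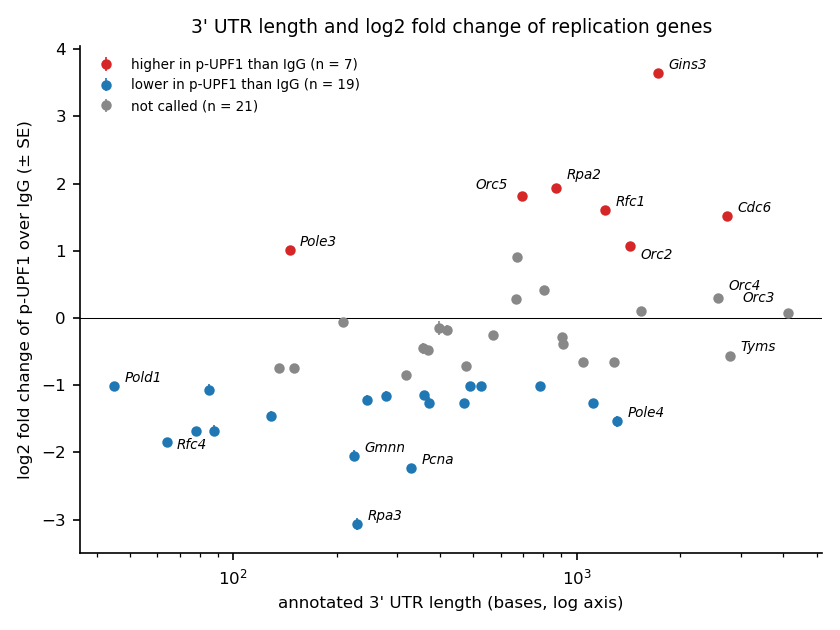
Annotated 3′ UTR length in bases (log axis) and log2 fold change of p-UPF1 over IgG libraries (± SE, TMM-scaled) of the 47 replication genes, coloured by call (7 higher, 19 lower, 21 not called). Of the higher genes, Pole3 alone has a 3′ UTR under 692 bases, the lower genes lie between 45 and 1311 bases, and Orc3, Orc4 and Tyms are long without a call. With equal mitochondrially encoded mRNA as the scale all points lie above 0, where 99.3% of all genes tested were called higher.

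Other features that can mark an mRNA for nonsense-mediated decay were counted in the same way. None of the 47 RefSeq Select transcripts has a splice junction more than 50 bases beyond the stop codon (0.269% of tested genes do). A transcript labelled as nonsense-mediated decay is annotated in GENCODE M21 for 11 members (23.4%, against 29.0% of tested genes), of which 2 are among the 7 higher (Pole3 and Cdc6) and 4 among the 19 lower. An ATG lies in the annotated 5′ UTR of 13 of the 47 members, against 46.6% of tested genes. The stop codon was TGA in 30, TAG in 9 and TAA in 8 of the 47 members, against 51.6%, 23.2% and 25% of tested genes. Counts per gene do not separate isoforms. Exons of another gene overlap on the opposite strand in 11 members. These are 0 of the 7 higher, 3 of the 19 lower (Cdc45, Pold2 and Rfc4) and 8 of the 21 not called. No share of all genes tested stands beside these counts. Whether counting used strand is not given for these libraries.

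A wider list of 58 replication and S-phase genes outside the 47 gave 8 higher (13.8%) and 11 lower (19.0%) genes over IgG at the same minimum, beside 22.2% and 21.9% of all genes, with a median of -0.39. None of the 58 met both minimums for a p-UPF1-bound RNA, against 6.25% of all genes. Among the 4 highest over IgG were E2f6 (1.70 ± 0.07), Timeless (1.26 ± 0.04) and Rrm2b (1.23 ± 0.09), and the 4 lowest were Rnaseh2c (-2.22 ± 0.13), Asf1a (-2.11 ± 0.07), Nasp (-1.77 ± 0.05) and Ccna2 (-1.57 ± 0.06). None of the genes named here reached the 3.64 of Gins3.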

How the data were processed

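RIP-seq libraries of activated splenic B cells (3 input, 3 IgG, 3 p-UPF1) were analysed from the deposited raw read counts per gene, given by the authors under NCBI Gene numbers, without scaling or filtering. Per the submitters' processing notes, cutadapt, HISAT2 and featureCounts were used with mm10, and versions are not given in the sources used here. The library kit is directional, while the study's methods name unstranded alignment for its RNA-seq, and for RIP-seq the setting is not given. Reads were not marked by molecular identifiers, so counting error understates the true error.

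Genes were kept with filterByExpr (minimum count 10, minimum total 15), which left 13129 genes with 99.9% of counts. edgeR 4.0.16 (R 4.3.3) was used with TMM factors, a quasi-likelihood fit to the 3 groups over all 9 libraries (6 residual degrees of freedom), glmQLFTest (two-sided), Benjamini-Hochberg adjustment over the 13129 genes and a prior count of 0.125 for log2 fold changes. SE values were derived from the test statistic. Calls needed an adjusted P under 0.05 and a log2 difference of 1 or more in size (2 or more for p-UPF1 over input), and p-UPF1-bound RNAs both, as in the study's methods. Since lettered columns could not be matched to numbered samples, each was assigned to its group only. A block on the letter, which the columns of all groups share, was added as an alternative after seeing the data. Alternatives were other scalings, filters, samples and prior counts, glmTreat, limma-voom (limma 3.58.1), DESeq2 1.42.0 and each library left out in turn.

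Feature lengths, positions and sequences are those of RefSeq Select transcripts on GRCm38.p6, the assembly mm10 names, with GENCODE M21 for transcript labels. All members were accounted for by complex, with values in every library for the GINS genes and the highest and lowest member of each group. Pold4 was given in the same way after its values were seen. The members and lists were chosen with earlier results of these data known. Of the other replication genes, the 4 highest and 4 lowest over IgG were to be named, and 1 of them is not reported here.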

Additional observations from a re-analysis of the deposited data

How the results depend on the processing

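The replicate numbers of the labels could not be used for pairing, since the columns carry letters instead. Deviations of same-letter libraries from their group means correlated at -0.01 to 0.05 over 13129 genes (-0.06 to 0.02 for different letters), too weakly to show that letters pair the libraries. A replicate block by letter (4 residual degrees of freedom, chosen after seeing the data) left 7 higher and 19 lower members over IgG, 1 higher and 5 lower over input, 1 p-UPF1-bound, and 0 higher and 0 lower in IgG than in input. At any fold it brought Pold3 over IgG (adjusted P = 0.0396), Pola1 over input (0.0461), and Mcm3 (0.0254) and Mcm4 (0.0335) for IgG over input under 0.05 by edgeR. Over IgG, the number of higher members was 5 with library size alone, upper-quartile factors, an input library as TMM reference or glmTreat (Orc2 and Pole3 lost), and that of lower members ranged from 14 to 20 over the settings other than mitochondrial scaling, with up to 5 lost (from Mcm2, Mcm3, Mcm4, Pold1 and Pole2, near -1) and Pola2 gained with library size alone. Scaling to equal mitochondrially encoded mRNA gave 47 higher and 0 lower over IgG (99.3% and 0.0% of all genes), and 46 higher and 0 lower over input (97.0% and 0.0% of all genes). Over input, 2 members were higher and 2 were p-UPF1-bound (Gins3 and Rpa2) with DESeq2 size factors in edgeR, an IgG library as TMM reference, no low-count filter and DESeq2. Over input, 3 members were lower with no low-count filter and 3 with glmTreat (Gmnn and Pold2 lost in both), and 4 with an IgG library as TMM reference (Gmnn lost). With single libraries left out there were 6 to 7 higher and 15 to 19 lower over IgG, 1 higher and 5 lower over input, 1 to 1 p-UPF1-bound, and 0 to 1 lower in IgG than in input, the 1 being Pold4 without IgG replicate A. Without ribosomal protein and mitochondrially encoded genes, the members' share of counts was 0.619% in input and 0.615% in IgG libraries. The value for Mcm6, IgG over input, changed sign to 0.09 with library size alone and to 0.09 with only the 2 groups compared. For the cause of these shifts, nothing beyond each setting's own construction was tested. Depth limited few values, since the lowest count behind a member was 61 reads, for Rpa3 in a p-UPF1 library.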
